A study of Mus musculus with 6 samples.

Results

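Messenger RNA of 10 fatty acid desaturase and elongase genes was followed in mouse cerebral cortex, in mice given a short hairpin RNA against Fabp7 (shFabp7) and in mice given a scrambled one (shScr). The genes were Scd1, Scd2, Fads1, Fads2, Elovl1, Elovl2, Elovl4, Elovl5, Elovl6 and Elovl7, chosen by name, and all 10 were found among the 49315 genes counted. There were 3 libraries per group. The shFabp7 group carried AAV-PHP.eB-Gfap-GFP-shFABP7 and the shScr group AAV-PHP.eB-Gfap-GFP-shScr. The PHP.eB capsid reaches the mouse brain from the blood, and the promoter driving the hairpin is that of Gfap, an astrocyte gene. All mice were wild type, received the vector by retro-orbital injection at 21 days of age, and from 4 months of age had lipopolysaccharide (LPS, a bacterial cell wall component) at 1 mg/kg once a week for 3 weeks, with tissue taken 24 h after the last dose. No group without LPS was part of the comparison. The hairpin acts only in cells that took up the vector and use the Gfap promoter, whereas the RNA came from whole cortex.

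Desaturases and elongases are membrane enzymes of the endoplasmic reticulum that reshape the acyl chains of membrane lipids. Scd enzymes place the first double bond in saturated chains and make oleate and palmitoleate. Fads2 and Fads1 add further double bonds to the essential fatty acids, Elovl5 and Elovl2 lengthen these polyunsaturated chains on the way to arachidonate and docosahexaenoate, and the other elongases act on saturated, monounsaturated or very long chains. In the brain, Scd2 is known as a main delta-nine isoform, very long chains are built into myelin, and astrocytes are known as makers of docosahexaenoate. Fabp7 encodes the brain fatty acid-binding protein, which carries such chains within astrocytes.

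Sequences of the start regions are shown for 3 genes: Fads2, which had the lowest p of the 10 genes, and Elovl5 and Elovl6, elongases whose levels varied alike over the libraries. They are RefSeq windows of 300 bases on GRCm38.p6, from 250 bases before to 50 bases after a start given by RefSeq, on the strand of the gene. For Elovl6 that start lies downstream of the gene start in the deposited files. Capitals mark matches, on either strand, to any of 6 motifs.
Fads2 (chr19:10101454-10101753, minus strand): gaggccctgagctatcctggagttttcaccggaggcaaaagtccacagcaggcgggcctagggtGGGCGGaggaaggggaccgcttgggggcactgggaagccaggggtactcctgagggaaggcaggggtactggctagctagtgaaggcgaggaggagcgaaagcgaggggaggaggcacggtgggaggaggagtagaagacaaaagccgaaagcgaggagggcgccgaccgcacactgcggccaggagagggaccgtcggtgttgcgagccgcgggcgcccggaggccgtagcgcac
Elovl5 (chr9:77917115-77917414, plus strand): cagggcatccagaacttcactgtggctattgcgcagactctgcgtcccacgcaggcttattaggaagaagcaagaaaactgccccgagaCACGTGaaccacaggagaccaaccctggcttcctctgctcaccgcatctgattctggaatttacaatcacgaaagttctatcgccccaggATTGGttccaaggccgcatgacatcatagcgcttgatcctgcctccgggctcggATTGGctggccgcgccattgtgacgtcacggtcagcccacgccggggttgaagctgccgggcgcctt
Elovl6 (chr3:129532136-129532435, plus strand): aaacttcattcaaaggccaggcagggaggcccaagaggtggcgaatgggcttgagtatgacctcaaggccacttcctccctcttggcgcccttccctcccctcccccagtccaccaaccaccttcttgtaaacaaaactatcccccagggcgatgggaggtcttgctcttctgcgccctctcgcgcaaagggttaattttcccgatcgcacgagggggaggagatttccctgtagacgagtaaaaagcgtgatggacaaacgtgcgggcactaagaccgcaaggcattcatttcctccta
The motifs were the sterol regulatory element TCACNCCAC, the E-box CACGTG, the CCAAT box, the GC box GGGCGG, the DR4 element bound by LXR and the DR1 element bound by PPAR (repeats of AGGTCA in 1 direction, with any 4 bases and any 1 base between them). Windows were at hand for 7 of the 10 genes, 9 windows in all, as Elovl1 and Elovl2 each had a further window. A gene is counted if any of its windows matched, whereas the shares of all genes are shares of single windows. The CCAAT box was present in 3 of these 7 (Elovl1, Elovl4 and Elovl5) and in 37.4% of 32544 windows of all genes. The GC box was present in 5 (Elovl1, Elovl2, Elovl4, Elovl7 and Fads2) and in 35.9% of all windows, and the E-box in 2 (Elovl4 and Elovl5) and in 7.17%. In Elovl1 a GC box overlaps the CCAAT box, and in Elovl4 the GC boxes overlap each other. The sterol element and the DR4 and DR1 elements had 0 matches in the 7 genes, against 1.24%, 0.015% and 0.040% of all windows. Scd1, Scd2 and Fads1 had no window and were not searched, so Fads2 was the only desaturase gene covered. The printed Elovl6 window held none of the 6 motifs. A match describes the letters of the window only.

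Total counts were 16914012 to 18991235 in shFabp7 libraries and 17789433 to 18760154 in shScr libraries. Fabp7 had 93, 41 and 66 reads in shFabp7 libraries 1 to 3, against 484, 285 and 290 in shScr libraries 1 to 3. All 3 shFabp7 libraries lay below every shScr library, so the target went with the labels. Its log2 fold change was -2.31 ± 0.35 (SE), with a Benjamini-Hochberg adjusted p of 0.0704 in edgeR's quasi-likelihood test, which did not pass the threshold of 0.05, and of 5.2e-13 in DESeq2, which did. Markers fixed for cortical cell types were detected in every list. Hippocampal markers stood apart in shScr libraries 1 and 3: the summed level of the 8 markers, in TMM-scaled counts per library size (CPM), was 142, 118 and 143 CPM in shFabp7 libraries 1 to 3, against 291, 145 and 275 CPM in shScr libraries 1 to 3, and 0 of the 8 had no reads. Of these 8, 7 had a log2 fold change below 0. The 10 excitatory neuron markers summed to 7469, 8277 and 7132 CPM in shFabp7 libraries 1 to 3 and to 4474, 6382 and 6197 CPM in shScr libraries 1 to 3, and all 10 had a log2 fold change above 0, while 0 of them had no reads. Choroid plexus and ependymal markers, all 6 tested of 8 below 0, summed to 11.4 to 18.3 CPM in shFabp7 and 16.9 to 37.2 CPM in shScr. Microglial markers, 8 of 10 below 0, summed to 441 to 490.02 CPM in shFabp7 and 505 to 533 CPM in shScr. Astrocyte markers, 6 of 12 above 0, summed to 5199 to 5725 CPM in shFabp7 and 5057 to 5480 CPM in shScr. Single astrocyte markers shifted in both directions, with log2 fold changes from -0.79 to 0.26. In edgeR's quasi-likelihood test 0 of the 12 passed the threshold. At an unadjusted p under 0.05, 3 were higher and 4 lower in shFabp7, against 8.44% and 8.32% of all genes tested. Groups did not overlap for 3 in the higher and 4 in the lower direction, against 11.4% and 11.5%.

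None of the 10 genes passed the threshold in either direction by edgeR's quasi-likelihood test, or by DESeq2. Among all 17185 genes tested, 0.116% passed in edgeR (0.0582% higher and 0.0582% lower in shFabp7), and 4.49% of those with an adjusted p passed in DESeq2. At an unadjusted p under 0.05 there were 2 of the 10, Scd1 with a higher and Fads2 with a lower mean in shFabp7, against 16.8% of all genes (8.44% higher and 8.32% lower). Groups did not overlap for 1 of the 10, Scd1, against 22.9% of all genes. Both counts therefore lay near or below what all genes showed. Log2 fold changes were above 0 for 5 genes and below 0 for 5, with a median of -0.0031, against -0.0065 over all genes tested, of which 48.5% lay above 0. The 95% intervals of the 10 genes reached from 0.728-fold to 1.37-fold of the shScr level, and 8 of the 10 included no change. The intervals are not adjusted for the number of genes. In bulk tissue, fewer cells of a type and less RNA per cell cannot be told apart.

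**Figure D1:**
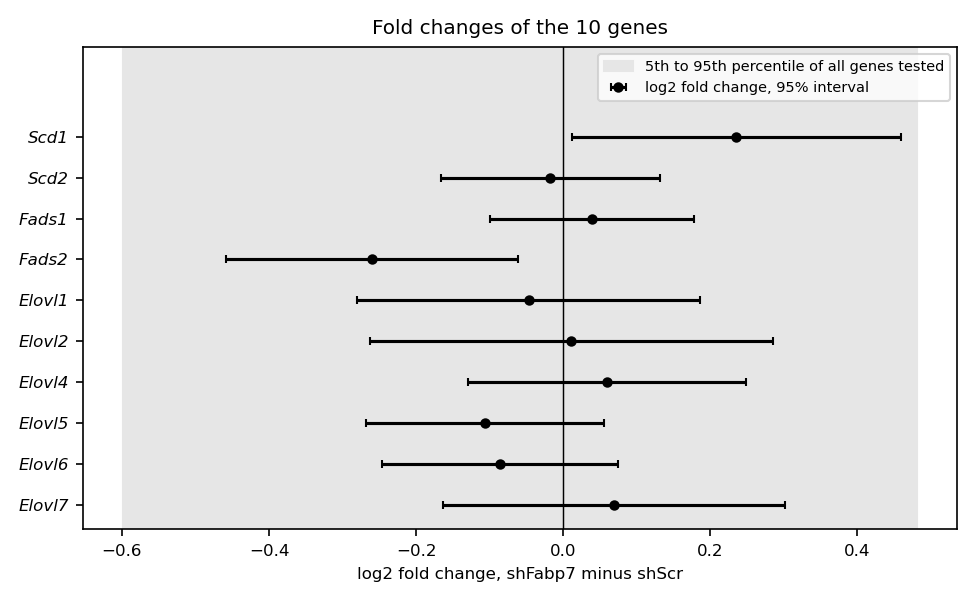
Log2 fold change, shFabp7 minus shScr, of each of the 10 genes (horizontal axis) with its 95% interval from edgeR's quasi-likelihood fit (n = 3 libraries per group), over a grey band from the 5th to the 95th percentile of all genes tested (-0.60 to 0.48). The points run from -0.26 for Fads2 to 0.24 for Scd1, and all 10 intervals lie within the band.

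The 10 genes covered a 100.1-fold span of levels. Per kilobase of exon, and as means over all 6 libraries, Scd2 stood at 262 ± 10.6 CPM per kb (SD, n = 6). Fads1 followed at 59.3 ± 2.30, Fads2 at 55.8 ± 7.39 and Scd1 at 40.4 ± 5.16 CPM per kb (SD, n = 6). The deposited exon length was 1508 bases for Fads2 and 3456 for Fads1. Their GENCODE M21 transcripts hold 3291 and 4995 distinct stretches of 50 bases, so the per-kb places of both genes depend on the length used. Elovl5 stood at 19.1, Elovl4 at 14.9, Elovl6 at 8.79, Elovl1 at 7.13, Elovl2 at 4.01 and Elovl7 at 2.62 CPM per kb. Each gene lay above the next in all 6 libraries and with ranges that did not overlap, except that Fads1 exceeded Fads2 in 4 of the 6 only. The order was therefore the same from Scd2 to Elovl7 in both groups but for that pair: per kb, Fads2 had 50.8 ± 3.34 CPM in shFabp7 and 60.8 ± 7.06 CPM in shScr, and Fads1 had 60.1 ± 1.14 CPM in shFabp7 and 58.5 ± 3.16 CPM in shScr (SD, n = 3 each). Scd2 held 55.3% of the summed level per kb of the 10 genes in shFabp7 and 55.3% in shScr.

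**Figure D2:**
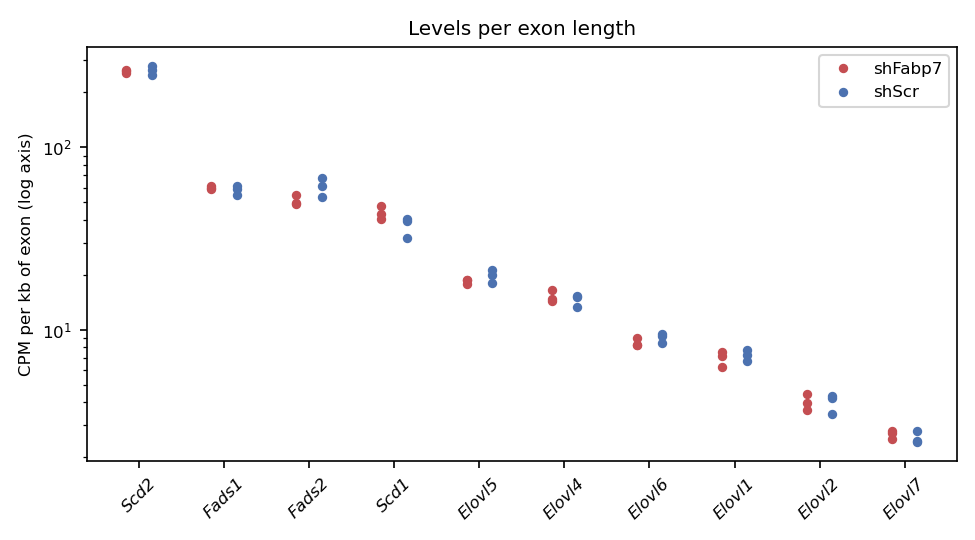
Level of each gene in CPM per kb of exon on a log axis, with 1 point per library (red, shFabp7, on the left of each pair; blue, shScr, on the right). Scd2 lies above all other genes in every library, and Fads1 and Fads2 are the neighbours whose points overlap.

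Scd1 and Scd2 encode stearoyl-CoA desaturases and lie on chromosome 19, Scd1 from 44394451 to 44407709 on the minus strand (ENSMUSG00000037071) and Scd2 from 44293676 to 44306864 on the plus strand (ENSMUSG00000025203). Their starts are 114 kb apart. Scd1 had 196, 229 and 209.5 CPM in shFabp7 libraries 1 to 3, against 195, 190.4 and 153 CPM in shScr libraries 1 to 3. All shFabp7 libraries were above all shScr libraries, by a narrow margin between shFabp7 library 1 and shScr library 1. The means were 211 ± 16.8 CPM in shFabp7 and 180 ± 22.7 CPM in shScr (SD, n = 3 each), which gave a log2 fold change of 0.24 ± 0.10 (SE) with a Benjamini-Hochberg adjusted p of 0.277 in edgeR's quasi-likelihood test (unadjusted p of 0.0407) and an exact two-sided permutation p of 0.1, the smallest that 3 against 3 allows. Scd2 had 1397, 1429 and 1440.1 CPM in shFabp7 libraries 1 to 3, against 1522, 1448 and 1348 CPM in shScr libraries 1 to 3. The shFabp7 libraries lay inside the shScr range, and the log2 fold change of -0.02 had a 95% interval of -0.17 to 0.13. Scd2 reads were more even in shFabp7, where the coefficient of variation was 1.57%, against 6.06% in shScr. That was not particular to Scd2, as all of the 10 genes but Elovl1 had a lower coefficient of variation in shFabp7. For Fads1 it was 1.89% in shFabp7 and 5.40% in shScr, and for Elovl1 10.1% in shFabp7 and 7.04% in shScr. Taken as wholes, shFabp7 libraries also differed less from each other, with pairs at a chi-square of 4.46 to 4.76 per degree of freedom. Pairs of shScr libraries had 7.87 to 13.2. How many of all genes had a lower coefficient of variation in shFabp7 was not counted. Lower spread is therefore not shown to be a trait of the 10 genes. These differences in spread were not tested.

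The Scd1 value differed between fits with and without regional markers. With the mean log2 CPM of the hippocampal markers as a covariate, it was 0.03 in place of 0.24. That mean was lower in every shFabp7 library than in every shScr library, so this fit cannot separate group from marker level. With shScr libraries 1 and 3 both left out the Scd1 value was 0.15, a fit in which the spread of the single shScr library is taken from shFabp7. Without a filter on low counts the value was nearly the same but passed the threshold (log2 fold change 0.23, adjusted p of 0.0313 in edgeR's quasi-likelihood test), in a fit that called 5.23% of all genes. Without shScr library 3 alone it was 0.13. Over the 6 libraries, the Pearson r of Scd1 in log2 CPM was -0.89 with the mean of the hippocampal markers. It was 0.89 with inhibitory neuron and -0.87 with choroid plexus and ependymal markers. The part of the regional or other markers in the Scd1 result was not tested.

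The 2 Scd genes resemble each other closely enough to matter for read counts. Their coding sequences in GENCODE M21 have 1065 and 1074 bases and are 89.6% identical in a global alignment. The longest run shared without a difference has 147 bases, from base 523 to 669 of the Scd1 coding sequence and from base 532 to 678 of that of Scd2, and is printed to show how far a read can fail to tell the copies apart.
Scd1 and Scd2: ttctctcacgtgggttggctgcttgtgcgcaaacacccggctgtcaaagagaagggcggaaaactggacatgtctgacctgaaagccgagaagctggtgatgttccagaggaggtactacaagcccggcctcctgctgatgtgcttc
Of all stretches of 50 bases in the transcripts, 4.56% of those of Scd1 and 3.75% of those of Scd2 also occur in another gene of the desaturase and elongase family. For Fads2 the share was 0.152%, and for the other 7 genes it was 0%. Scd1 shared most with Scd3 (167 stretches), and Scd2 most with Scd1 (145). The sources used here do not give how reads that match several genes were counted, so the Scd1 and Scd2 values are uncertain. The shares do not bound that uncertainty. Scd2 averaged 1431 CPM and Scd1 195 CPM over all 6 libraries, so a small share of Scd2 reads is a larger share of the Scd1 level.

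Within a library, the ratio of Scd1 to Scd2 counts does not depend on library scaling. It was 14.0%, 16.0% and 14.5% in shFabp7 libraries 1 to 3, against 12.8%, 13.1% and 11.4% in shScr libraries 1 to 3. The groups did not overlap. The mean log2 ratio was -2.75 ± 0.10 in shFabp7 and -3.01 ± 0.11 in shScr (SD, n = 3 each), a difference of 0.26. The exact two-sided permutation p was 0.1 (adjusted 0.15 over the 3 ratios compared), so this design could not reach 0.05.

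Fads2 and Fads1 encode the delta-six and delta-five desaturases of the polyunsaturated pathway. They also lie on chromosome 19, Fads2 from 10064164 to 10101503 on the minus strand (ENSMUSG00000024665) and Fads1 from 10182888 to 10196870 on the plus strand (ENSMUSG00000010663), with starts 81.4 kb apart. Fads2, the first enzyme of the pathway, had 82.4, 73.2 and 74.1 CPM in shFabp7 libraries 1 to 3, against 102, 80.8 and 92.2 CPM in shScr libraries 1 to 3. The groups overlapped only in shFabp7 library 1, which was above shScr library 2. The means were 76.6 ± 5.04 CPM in shFabp7 and 91.7 ± 10.7 CPM in shScr (SD, n = 3 each). The log2 fold change of -0.26 ± 0.09 (SE) had a Benjamini-Hochberg adjusted p of 0.201 in edgeR's quasi-likelihood test (unadjusted p of 0.0157), an adjusted p of 0.198 by DESeq2 and an exact two-sided permutation p of 0.2. Its 95% interval ran from -0.46 to -0.06.

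Fads2 was highest in shScr libraries 1 and 3, the 2 libraries with the highest level of hippocampal markers. The mean log2 CPM of those markers was 2.17, 1.78 and 2.04 in shFabp7 libraries 1 to 3, and 3.13, 2.20 and 4.03 in shScr libraries 1 to 3. All shFabp7 values were below all shScr values, so a fit with this mean cannot separate group from marker level. With that mean as a covariate the log2 fold change of Fads2 was -0.13 (adjusted p of 0.843 in edgeR's quasi-likelihood test). With shScr libraries 1 and 3 left out it was -0.08. In the other direction, Fads2 passed the threshold without shScr library 2 (log2 fold change -0.34, adjusted p of 0.0365 in edgeR's quasi-likelihood test), with 1 surrogate variable (-0.25, adjusted p of 0.0335) and without a filter (-0.26, adjusted p of 0.0107). Those fits called 5.14%, 8.14% and 5.23% of all genes. Over the 6 libraries, the Pearson r of Fads2 in log2 CPM was 0.80 with the mean of the hippocampal markers. It was 0.90 with choroid plexus and ependymal, -0.88 with excitatory neuron and -0.81 with endothelial markers. The hippocampal list was thus not the closest in size of r. The part of the regional or other markers in the Fads2 result was not tested.

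Fads1, which acts after Fads2, had 212, 205 and 206 CPM in shFabp7 libraries 1 to 3, against 211, 205 and 190.1 CPM in shScr libraries 1 to 3. The groups overlapped, with a log2 fold change of 0.04 (95% interval -0.10 to 0.18). The ratio of Fads1 to Fads2 counts was 2.57, 2.80 and 2.78 in shFabp7 libraries 1 to 3, against 2.07, 2.53 and 2.06 in shScr libraries 1 to 3. The shFabp7 ratios were all above the shScr ratios, with shScr library 2 close to shFabp7 library 1. The mean log2 ratio was 1.44 ± 0.07 in shFabp7 and 1.14 ± 0.17 in shScr (SD, n = 3 each), a difference of 0.30 with an exact two-sided permutation p of 0.1 (adjusted 0.15), the smallest that the design allows. The difference ranged from 0.25 to 0.39 as each library was left out.

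**Figure D3:**
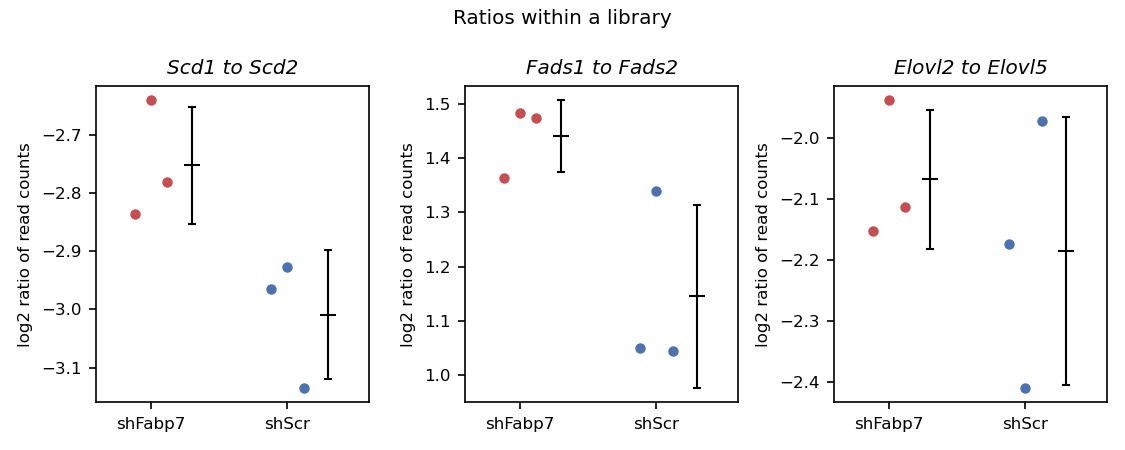
Log2 ratio of the read counts of a pair of genes within each library, for Scd1 to Scd2, Fads1 to Fads2 and Elovl2 to Elovl5 (points, libraries; dash and bar, mean ± SD, n = 3; vertical axes do not start at 0). The shFabp7 libraries lie above the shScr libraries in the first 2 panels, and the groups overlap in the third.

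Elovl5 and Elovl2 lengthen polyunsaturated chains, Elovl5 mainly the shorter and Elovl2 the longer ones. Elovl5 (chromosome 9, 77917364 to 77984519, plus strand, ENSMUSG00000032349) had 62.5, 65.8 and 66.1 CPM in shFabp7 libraries 1 to 3, against 75.2, 70.5 and 63.6 CPM in shScr libraries 1 to 3. The groups overlapped through shScr library 3, and the log2 fold change was -0.11 with a 95% interval of -0.27 to 0.06. Elovl2 (chromosome 13, 41182495 to 41220405, minus strand, ENSMUSG00000021364), which makes the precursors of docosahexaenoate, had 14.0, 17.2 and 15.3 CPM in shFabp7 libraries 1 to 3, against 16.7, 13.2 and 16.2 CPM in shScr libraries 1 to 3. Each group spanned much of the range of the other, and the log2 fold change was 0.01 with a 95% interval of -0.26 to 0.28. The ratio of Elovl2 to Elovl5 counts was 22.5%, 26.1% and 23.1% in shFabp7 libraries 1 to 3 and 22.1%, 18.8% and 25.5% in shScr libraries 1 to 3. Those groups overlapped (difference in log2 ratio 0.12, exact two-sided permutation p of 0.4, adjusted 0.4).

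Elovl6 extends palmitate to stearate and so supplies the Scd enzymes. Elovl6 (chromosome 3, 129532355 to 129638495, plus strand, ENSMUSG00000041220) had 53.1, 58.2 and 53.3 CPM in shFabp7 libraries 1 to 3, against 61.2, 59.3 and 54.2 CPM in shScr libraries 1 to 3. Only shFabp7 library 2 reached the shScr range, and the log2 fold change was -0.09 with a 95% interval of -0.25 to 0.08. Over the 6 libraries, Elovl5 and Elovl6 had a Pearson r of 0.88 in log2 CPM, and Scd2, the gene with the highest level per kb, was most like Elovl5 (r = 0.89), Fads6 (0.75) and Elovl6 (0.74) among 99 genes of the pathway. These values describe 6 libraries that share the tissue and the scaling.

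The remaining elongases act on long and very long chains. Elovl1 (chromosome 4, 118428093 to 118432953, plus strand, ENSMUSG00000006390), which serves sphingolipids with chains of myelin type, had 17.0, 19.7 and 20.7 CPM in shFabp7 libraries 1 to 3, against 18.4, 19.7 and 21.2 CPM in shScr libraries 1 to 3. Elovl7 (chromosome 13, 108214404 to 108287105, plus strand, ENSMUSG00000021696) had 14.8, 13.7 and 15.2 CPM in shFabp7 libraries 1 to 3, against 13.2, 15.1 and 13.4 CPM in shScr libraries 1 to 3. Elovl4 (chromosome 9, 83778692 to 83806277, minus strand, ENSMUSG00000032262), known for the ultra long chains of retina, skin and synapses, had 43.3, 49.9 and 44.6 CPM in shFabp7 libraries 1 to 3, against 40.2, 46.5 and 45.5 CPM in shScr libraries 1 to 3. The groups overlapped for all 3, with log2 fold changes of -0.05, 0.07 and 0.06 and 95% intervals of -0.28 to 0.19, -0.16 to 0.30 and -0.13 to 0.25 for Elovl1, Elovl7 and Elovl4. The 13 markers of mature oligodendrocytes summed to 4329 to 5165 CPM in shFabp7 and 3959 to 5053 CPM in shScr, with a median log2 fold change of 0.03. With their mean as a covariate, 0 of the 10 genes passed the threshold in edgeR, against 1.27% of all genes.

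**Figure D4:**
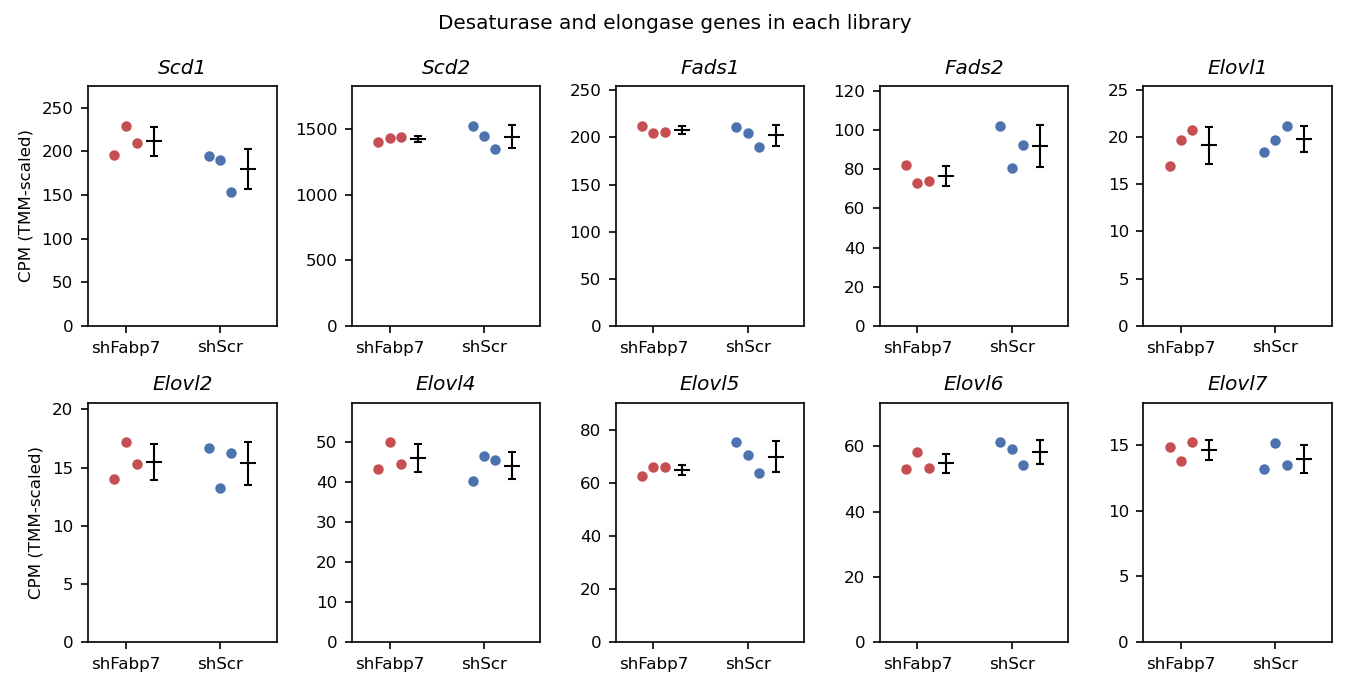
Level of each of the 10 genes in CPM (vertical axes start at 0) in shFabp7 (red) and shScr (blue) libraries, ordered 1 to 3 from left to right, with the mean ± SD (dash and bar, n = 3). The groups overlap in every panel but that of Scd1, and the Fads2 groups overlap in 1 library.

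Grouped by role, the summed levels differed little between the groups. The 2 Scd genes together had 1633 ± 35.6 CPM in shFabp7 and 1619 ± 109 CPM in shScr. Fads1 and Fads2 together had 284 ± 8.96 CPM in shFabp7 and 294 ± 17.2 CPM in shScr. Elovl2 and Elovl5 together had 80.3 ± 3.32 CPM in shFabp7 and 85.1 ± 6.13 CPM in shScr, and the 3 very long chain elongases 79.6 ± 4.16 CPM in shFabp7 and 77.7 ± 5.20 CPM in shScr (SD, n = 3 each). Each difference was smaller than the SD of the shScr libraries. Over all 6 libraries Scd2 averaged 1431 CPM and Scd1 195 CPM, and Fads1 205 CPM and Fads2 84.1 CPM. The first sums therefore mostly follow Scd2 and Fads1, and say little about Scd1 and Fads2.

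Genes that surround these enzymes were read from 8 lists of 92 genes, of which 90 had enough counts to test. In edgeR 0 of the 90 passed the threshold, against 0.116% of all genes, and in DESeq2 1 did, against 4.49% of all genes. At an unadjusted p under 0.05 there were 8 with a higher and 6 with a lower mean in shFabp7, which is 15.6% against 16.8% of all genes (8.44% higher and 8.32% lower). Groups did not overlap for 10 in the higher and 9 in the lower direction, 21.1% against 22.9% of all genes.

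Among the other desaturases and elongases, 1 of 6 tested genes had a log2 fold change above 0, with a median of -0.10. Degs1, the desaturase of ceramide synthesis, averaged 50.6 ± 0.930 CPM in shFabp7 and 51.0 ± 3.76 CPM in shScr (SD, n = 3 each), and Fads6 36.9 ± 5.51 CPM in shFabp7 and 37.8 ± 4.23 CPM in shScr. Elovl3, at most 0.076 CPM in a group mean, was too low to test. Genes that complete the elongation cycle or pass electrons to the desaturases had a median of -0.07, with 5 of 11 above 0. That median was -0.021 without shScr library 1, -0.13 without shScr library 2, 0.0014 without shScr library 3 and -0.026 without shFabp7 library 1. Tecr, the enoyl reductase of the cycle, had a log2 fold change of 0.06 and Cyb5b, a cytochrome b5, 0.09. Cyb5r1, named after its values were seen, averaged 14.6 ± 0.956 CPM in shFabp7 and 18.6 ± 2.18 CPM in shScr, with groups that did not overlap and a Benjamini-Hochberg adjusted p of 0.182 in edgeR's quasi-likelihood test.

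De novo synthesis makes the palmitate on which Elovl6 acts. That list had a median of 0.02, with 6 of 11 above 0. The median ranged from -0.0036 to 0.090 as each library was left out. Fasn, the fatty acid synthase, averaged 334 ± 9.68 CPM in shFabp7 and 324 ± 24.2 CPM in shScr (SD, n = 3 each), and Acly, which makes cytosolic acetyl-CoA, 193 ± 3.66 CPM in shFabp7 and 196 ± 24.7 CPM in shScr. Genes of SREBP, LXR and PPAR control, which set the transcription of many desaturases and elongases, had a median of 0.09, with 11 of 16 above 0. Srebf2 had a log2 fold change of 0.11 and Scap, the escort of the SREBP precursors, -0.08. Srebf1, the member of the pair that drives fatty acid genes, is named here after a look at its values and averaged 61.3 ± 1.93 CPM in shFabp7 and 73.0 ± 7.30 CPM in shScr, a log2 fold change of -0.25 with groups that did not overlap and a Benjamini-Hochberg adjusted p of 0.177 in edgeR's quasi-likelihood test.

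Acyl-CoA synthetases, which activate fatty acids for both enzyme families, had a median of 0.07, with 6 of 8 above 0. Acsl6, the synthetase tied to docosahexaenoate in brain, averaged 295 ± 22.7 CPM in shFabp7 and 250.5 ± 14.2 CPM in shScr (SD, n = 3 each), which gave a log2 fold change of 0.23 with groups that did not overlap and a Benjamini-Hochberg adjusted p of 0.186 in edgeR's quasi-likelihood test. Acsl3 had 0.09. Acyltransferases that place chains in phospholipids had a median of -0.04, with 6 of 13 above 0. The sign of that median turned without shFabp7 library 3 (0.028), shScr library 2 (0.037), shFabp7 library 1 (0.0053) or shScr library 1 (0.00069). Agpat3 averaged 316 ± 16.8 CPM in shFabp7 and 270.2 ± 21.6 CPM in shScr, a log2 fold change of 0.23 with a Benjamini-Hochberg adjusted p of 0.192 in edgeR's quasi-likelihood test, and Mboat7, which acts on phosphatidylinositol, had -0.08.

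Peroxisomal genes, which shorten very long chains in the last step to docosahexaenoate, had a median of 0.01, with 6 of 11 above 0. As each library was left out, it ranged from -0.012 to 0.030. Scp2, a thiolase of that step, had a log2 fold change of -0.0048. The 1 gene of all lists called by DESeq2 was Abcd2, a peroxisomal transporter of very long chains, named after its values were seen. It averaged 63.6 ± 15.5 CPM in shFabp7 and 41.8 ± 4.45 CPM in shScr, a log2 fold change of 0.61 with a Benjamini-Hochberg adjusted p of 0.202 in edgeR's quasi-likelihood test. Genes of sphingolipid synthesis had a median of -0.05, with 5 of 14 above 0. It was -0.098 without shScr library 1 and -0.087 without shFabp7 library 3. The ceramide synthase gene Cers4 had -0.12 and Ugcg, the glucosylceramide synthase, -0.04.

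**Figure D5:**
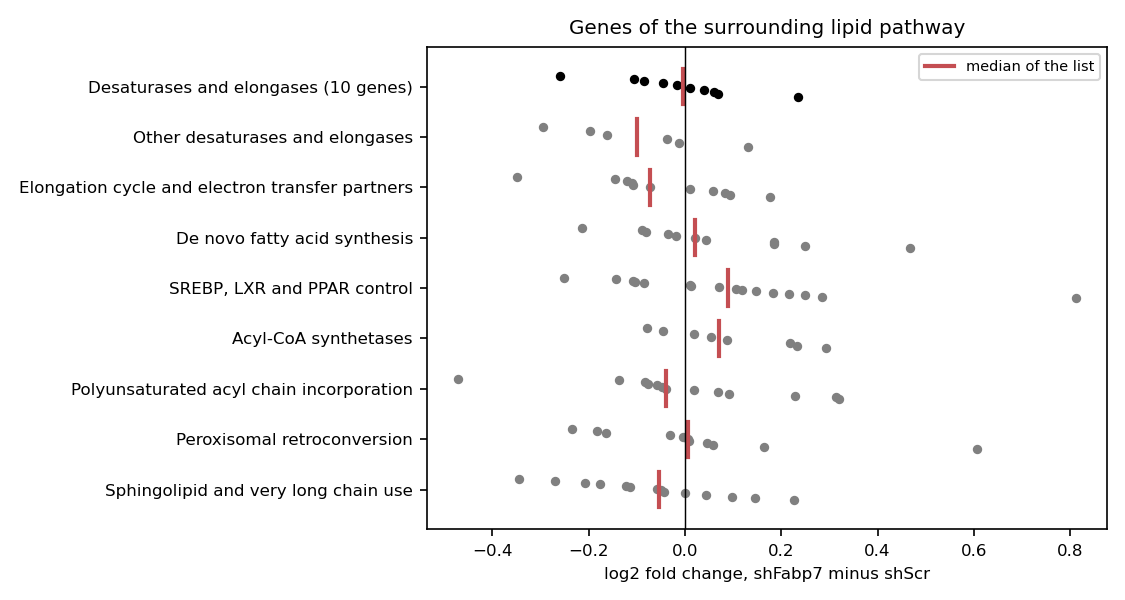
Log2 fold change, shFabp7 minus shScr, of each tested gene (points) in the 10 desaturase and elongase genes (black) and in 8 lists of surrounding lipid genes (grey), with the median of each list as a red bar. List medians lie between -0.10 and 0.09.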

How the data were processed

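Per the labels, RNA of cerebral cortex (0.5 µg per library, stranded mRNA kit) was sequenced, with groups and replicate numbers from the sample titles. No label says whether libraries came from separate animals, and p-values then cover only the spread between libraries, which may be technical. Each deposited file gives the authors' unnormalized counts of reads by gene, with columns named as featureCounts names them, and its length column gave kilobases of exon. The build GRCm39 and the tools STAR 2.5.2b, Subread 1.5.2, Trimmomatic 0.36 and DESeq2 appear, without role or order, in the submitters' processing notes. Gene positions in the files matched GENCODE M21 (GRCm38) for 91.4% of 48970 genes, and coordinates are read as GRCm38. The strand setting and the treatment of multi-mapped reads are not given in the sources used here. Exons of Scd2, Elovl1 and Elovl6 share at most 61 bases with another gene (Mir5114, Cdc20 and Gm35986), which had at most 15 reads in a library.

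Genes were filtered with filterByExpr (17185 of 49315 left, all 10 genes among them), scaled by TMM and tested with edgeR 4.0.16 (quasi-likelihood, robust, group alone) in R 4.3.3, two-sided, with p-values adjusted by Benjamini-Hochberg across the whole table and called at 0.05. The SE was taken as log2 fold change over the root of F, and 95% intervals use the total degrees of freedom. Log2 CPM used a prior count of 2 and ratios one of 0.5. Alternatives were DESeq2 1.42.0, limma 3.58.1 (voom with quality weights), RLE, upper-quartile and no factors, other filters, the replicate number as a block, an oligodendrocyte score, 1 surrogate variable (sva 3.50.0), a threshold of 0.1 and each library left out. A hippocampal score and leaving out shScr libraries 1 and 3 were added after seeing the data. No library was a copy of another (chi-square per degree of freedom 4.46 to 23.3 between pairs).

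The 10 genes and the lists were chosen with earlier results of these data known. By rule, all 10 genes are named, and of each list the 2 genes with the highest mean where none passed the threshold. One gene that this rule names is not reported here. Marker lists are described by their sums where they bear on a result.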

Additional observations from a re-analysis of the deposited data

How the results depend on the processing

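The number of the 10 genes past the threshold was 0 in edgeR and in 16 of 19 alternatives. It was 2 without a filter, 1 with 1 surrogate variable, and 0 to 1 as each library was left out (1 without shScr library 2). The number over all genes, 20, was less stable. It was 696 with DESeq2, 109 with limma-voom, 1617 without a filter, 629 with the replicate block, 218 with the oligodendrocyte score, 1399 with 1 surrogate variable, 292 at a threshold of 0.1, 0 with the hippocampal score and 120 with shScr libraries 1 and 3 both left out. As each library was left out it was 10, 0 and 0 without shFabp7 libraries 1 to 3, and 182, 900 and 20 without shScr libraries 1 to 3. The cause was not tested. With the hippocampal score, 1226 genes had an unadjusted p under 0.05 in edgeR.

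Scd1 stayed above 0 (0.03 to 0.30) and Fads2 (-0.34 to -0.08), Elovl5 (-0.20 to -0.05) and Elovl6 (-0.18 to -0.05) below 0 in all 18 alternatives of each. The other 6 genes, between -0.05 and 0.07 in the reported fit, changed sign in some, where the cause was not tested. Scd2 was 0.0057 with limma-voom. With library totals alone, Fads1 was -0.011 and Elovl2 -0.040. With the hippocampal score, Fads1 was -0.015 and Elovl7 -0.016, and with shScr libraries 1 and 3 both left out Elovl4 was -0.018 and Elovl7 -0.052. Elovl2, at 0.01 in the reported fit, was 0.15 with the hippocampal score and 0.22 with those libraries left out. As each library was left out, Scd2 ranged from -0.062 to 0.025, Fads1 from -0.0029 to 0.074, Elovl1 from -0.11 to 0.033, Elovl2 from -0.084 to 0.077 and Elovl4 from -0.0018 to 0.10. Medians of the elongation partner, acyltransferase and sphingolipid lists moved by more than the replicate spread in 5, 2 and 5 of 18 alternatives. Those of the other desaturases and elongases (-0.19 to -0.04), acyl-CoA synthetases (0.02 to 0.10) and SREBP, LXR and PPAR control (0.04 to 0.11) kept their sign in all 18. The 3 ratios kept their sign in all 8 alternatives of each. Differences were 0.19 to 0.30 for Scd1 to Scd2 and 0.25 to 0.39 for Fads1 to Fads2. For Elovl2 to Elovl5 they were 0.0050 to 0.22. The hippocampal score and leaving out shScr libraries 1 and 3 together were not among these 8, so the ranges do not cover them. With the hippocampal score, log2 fold changes were 0.03 for Scd1, -0.08 for Scd2, -0.015 for Fads1 and -0.13 for Fads2. With the replicate block the ratio differences were the same, with exact sign-flip p-values of 0.25, 0.25 and 0.75, where 3 pairs allow no p below 0.25.

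Libraries with the same number had correlations of their deviations of 0.08, 0.15 and 0.06. Those with different numbers had -0.18 to 0.10. Deviations from means of 3 libraries are tied to each other, so this check cannot decide whether the numbers mark pairs. With the block, 0 of the 10 genes passed, against 3.66% of all genes. With 3 libraries a group, differences smaller than the intervals given could not be resolved.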
